A study of Mus musculus with 6 samples.

Results

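Potassium channels set the resting voltage of the β cell and end each of its action potentials. In the triggering pathway of insulin secretion, glucose metabolism raises ATP, which closes the ATP-sensitive potassium (KATP) channel, and the cell depolarises until calcium channels open. The KATP channel of β cells joins the pore subunit Kir6.2, encoded by Kcnj11, with the sulfonylurea receptor SUR1, encoded by Abcc8. Voltage-gated and calcium-activated channels then repolarise the cell, and tandem-pore channels carry background current.

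The 96 genes described here are the protein-coding rows of the deposited table whose symbols begin with Kcn, plus Abcc8 and Abcc9, out of 22058 protein-coding and 54556 rows in all. No measured value entered that choice. RNA came from whole pancreatic islets of C57BL/6 mice aged 8 weeks and kept on normal chow. All the mice carried Mettl3 flox/flox alleles, and 3 libraries came from mice with those alleles alone. The other 3 came from mice that also carried RIP-Cre, Cre driven by a rat insulin promoter, and are labelled beta-Mettl3-KO. Mettl3 encodes the catalytic subunit of the enzyme that writes N6-methyladenosine (m6A) on mRNA.

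The design has no Cre-only control, and an effect of Cre cannot be told apart from one of the deletion. The labels do not say whether mice were pooled or whether libraries came from separate animals, so p-values measure only the spread between these libraries, which may be technical. Mettl3 itself did not pass the test, at 2.89 to 3.93 FPKM in the flox/flox libraries against 4.06 to 4.20 (adjusted p = 0.12). Reads summed over a gene cannot show the loss of some of its exons. Every direction below therefore compares libraries by their labels, knockout with flox/flox. In bulk RNA, fewer cells of a type and less RNA per cell cannot be told apart.

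Levels are FPKM (fragments scaled for gene length and library, comparable between genes), from libraries of 16398862 to 18387313 reads counted in genes. Differences are on the log2(FPKM + 0.5) scale, which understates changes of low genes, with the standard error of a limma fit over the 14497 genes with a mean of at least 1 FPKM. Unless stated otherwise, values joined by "against" give the flox/flox libraries first and the labelled-knockout libraries second, each in the order of replicates 1 to 3. A gene passed at a Benjamini-Hochberg adjusted p under 0.05 over all those genes. Of the 96 members 36 were tested and 60 lay under the filter. Among the 36, 7 reached the mean only through the level in 1 group, Kcnj12, Kcnf1 and Kcna2 through the flox/flox libraries and Kcnn4, Kcnc4, Kcnab2 and Kcna5 through the others.

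Cell-type markers differed between the groups in these libraries. Of 10 β-cell markers 9 fell and 1 did not pass, and Gcg of α cells was at 5627 to 10010 FPKM over the 6 libraries. All 8 tested lymphocyte markers and all 8 tested enterocyte markers rose. Endothelial markers fell in 10 of 10, acinar markers in 7 of 7, pericyte markers in 4 of 8, macrophage markers in 3 of 8 with 1 rising, and Schwann-cell and neuron markers in 1 of 4. No ductal marker of 6 and no PP-cell marker of 2 passed, 1 of 6 α-cell markers rose, and 1 of 2 δ-cell markers fell. The part of these cells in the channel results was not tested.

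Among the 36 tested channel genes 7 were higher, 9 were lower and 20 did not pass, so 44.4% passed, where 34.0% of all tested genes did. The share higher was 19.4% beside a background of 16.9%, and the share lower was 25% beside 17.2%. Groups of libraries did not overlap for 21 of the 36 (58.3%), where the background was 50.5%. The median log2 difference was 0.01 over the members and 0.00 over all tested genes. Because some members were tested only through the group in which they were high, these counts describe the members and support nothing about them as a class.

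Scaling and single libraries moved those counts. With each library scaled to its own total reads, the median of all genes moved by 0.36, and 16 members were higher and 5 lower, where 91.5% of all calls were higher. Without labelled-knockout replicate 3, 3 were higher and 6 lower, and without flox/flox replicate 3, 5 were higher and 4 lower. With a filter at 5 FPKM 14 members were tested, of which 4 were higher and 3 lower. Without labelled-knockout replicates 2 and 3, which had the highest sums of enterocyte markers, 2 were higher and 3 lower, with only 1 library left on that side, assumed to vary like the other group. Among the 5 that passed there were Kcnh1, Kcnk1, Kcnj12 and Kcnu1. Kcnc4 and Kcnab2 then lay under the filter and 9 calls were lost, among them those of Kcnf1 (adjusted p = 0.0623), Kcnip1 (0.103), Kcnn4 (0.161), Kcnab3 (0.174) and Kcnn3 (0.299).

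The channel transcripts of these islets were dominated by a few genes. Abcc8 and Kcnk16, which encodes the tandem-pore channel TALK-1, together held 56.0% to 57.4% of the summed FPKM of the 96 genes in flox/flox libraries against 52.0% to 53.8%. Adding Kcnh6, Kcnj11, Kcnmb2 and Kcnh2 brought the share to 80% to 80.6% and 77.9% to 78.3%. Ranks 1 to 4, Abcc8, Kcnk16, Kcnh6 and Kcnj11, were the same in both groups' means. Kcnh1 moved from rank 19 to rank 11, Kcnj12 from 21 to 60, Kcnf1 from 25 to 50, and Kcnu1 from 16 to 29.

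**Figure D1:**
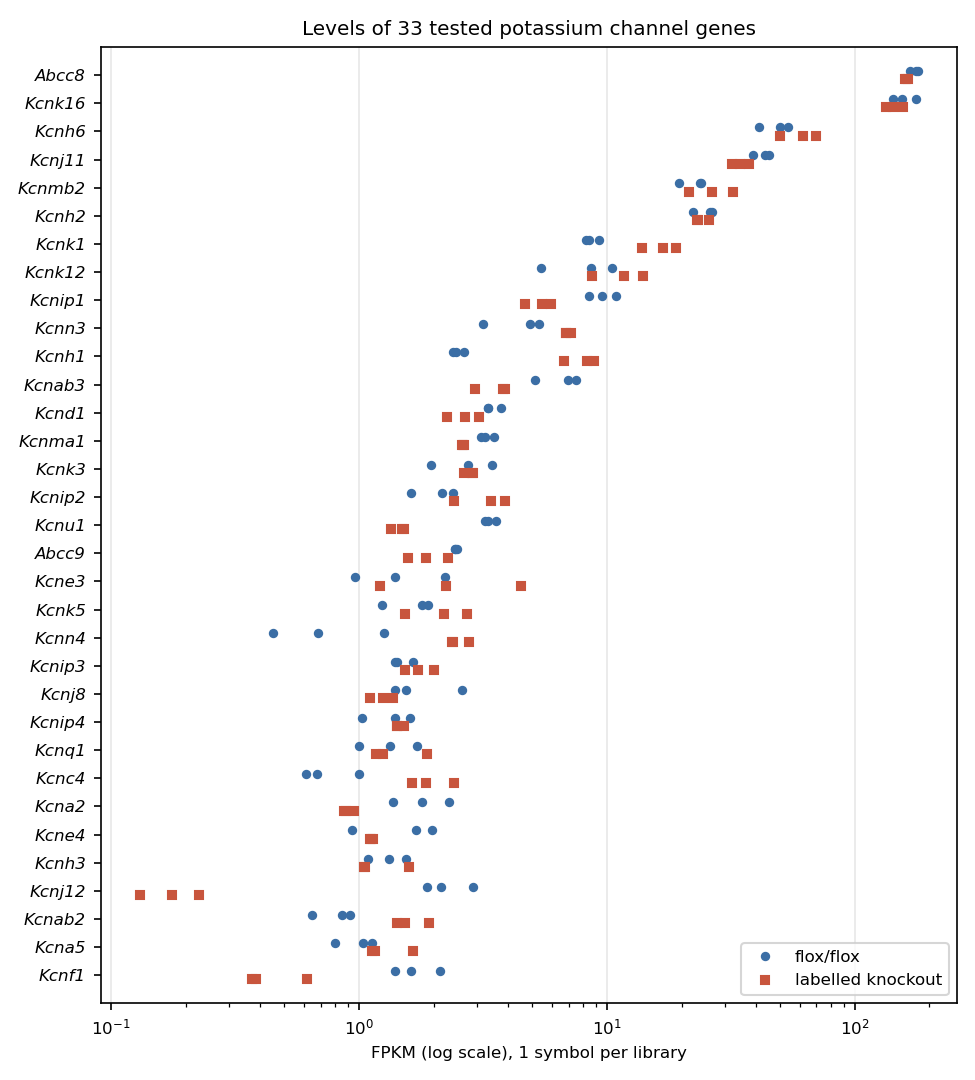
Each symbol is 1 library's FPKM, on a log axis, for 33 of the 36 tested channel genes, ordered by mean level (circles, flox/flox, squares, labelled knockout). Abcc8 and Kcnk16 stand above 130 FPKM in every library, and the groups separate widely for Kcnh1, Kcnj12 and Kcnf1.

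Sequences are shown for members on which the results below turn. The first set is 25 bases around the last GGACT inside the coding sequence, in the longest coding transcript of GENCODE M21. GGACT is a core sequence in which m6A is often written. The set is shown because METTL3, encoded by the gene floxed in all the mice, writes that mark. Sites past the end of the coding sequence are not shown, and numbered 3 in Kcnh1, 2 in Kcnk1, 1 in Kcnip1 and 0 in Kcnu1. Capitals mark the motif. These are letter matches, and methylation was not measured.
Kcnh1: agcgggtcatGGACTacattgtgtc
Kcnk1: cctgctcctcGGACTcatcgccatg
Kcnu1: gtgtaagctgGGACTcctctcttta
Kcnip1: taaagttcgaGGACTttgtgactgc

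Kcnh1 and Kcnk1 rose, and Kcnu1 and Kcnip1 fell. In Kcnk1 the motif ends 238 bases before the end of the coding sequence, in Kcnip1 317, in Kcnu1 454 and in Kcnh1 1352. Searched on the sense strand, GGACT was present in the transcripts of all 36 tested members and of 91.4% of 11863 tested protein-coding genes. Its median density per kilobase was 1.17 in the 7 members that rose (0.829 to 2.24), 1.28 in the 9 that fell (0.407 to 1.98) and 0.919 in the 20 others (0.33 to 4.06). The corresponding medians over all tested protein-coding genes were 1.09, 1.12 and 1.04. The ranges of the 3 sets of members overlapped, and Kcnj12, with the largest fall, had a single GGACT, outside its coding sequence.

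The second set is the 250 bases before the RefSeq start (GRCm38.p6) of the tested members with the largest rise and the largest fall. Capitals mark GGGCGG or TGCTGAC on either strand, the first a GC box and the second the core of the element that Maf factors bind.
Kcnh1: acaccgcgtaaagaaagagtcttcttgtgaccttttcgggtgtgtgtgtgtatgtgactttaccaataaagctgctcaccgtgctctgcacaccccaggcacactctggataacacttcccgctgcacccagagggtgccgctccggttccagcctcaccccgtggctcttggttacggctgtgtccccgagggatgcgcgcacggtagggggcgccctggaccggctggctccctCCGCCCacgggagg
Kcnj12: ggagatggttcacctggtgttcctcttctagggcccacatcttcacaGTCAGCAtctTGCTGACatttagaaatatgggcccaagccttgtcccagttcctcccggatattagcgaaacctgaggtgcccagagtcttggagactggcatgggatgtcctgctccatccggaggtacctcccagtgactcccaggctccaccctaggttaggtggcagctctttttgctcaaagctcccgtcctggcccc

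The Kcnh1 window is chr1:192190527-192190776 and the Kcnj12 window chr11:61065554-61065803, both on the plus strand. In the deposited table Kcnj12 spans 61022564 to 61071131, so its window lies inside the annotated gene. The Kcnh1 window held 1 GC box, 17 CpG and 62.0% G and C, and the Kcnj12 window held 2 TGCTGAC matches, 4 CpG and 56.0% G and C. Of 32851 RefSeq windows of this length, 32.7% held GGGCGG and 3.81% held TGCTGAC. Of the 95 windows of the 70 members with an entry, 45.3% held GGGCGG and 3.16% held TGCTGAC. Neither window held TATAAA, which was in 12.4% of all windows.

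The KATP channel genes of β cells differed little in level. Abcc8 (ENSMUSG00000040136) is a minus-strand gene at chr7:46104523-46180033 in GRCm38.p6, and Kcnj11 (ENSMUSG00000096146) lies beside it on the same strand at chr7:46093953-46100764. Abcc8 was at 179.9, 167 and 177 FPKM in flox/flox replicates 1 to 3 against 161, 159 and 163. Every labelled-knockout library was thus below every flox/flox library, by a small margin. The log2 difference of Abcc8 was -0.11 ± 0.06 (SE, limma adjusted p = 0.217), with a 95% interval of -0.27 to 0.04, and did not pass. Own-total scaling turned it to 0.29 (adjusted p = 0.007), below the 0.36 by which that scaling moved the median gene.

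Kcnj11 was at 43.2, 38.9 and 44.8 FPKM in the flox/flox libraries against 37.3, 32.0 and 34.5. The groups did not overlap, and the mean of 34.6 ± 2.65 (SD, n = 3) was 81.7% of the flox/flox mean of 42.3 ± 3.07. It fell by 0.29 ± 0.09 on the log2 scale (SE, limma adjusted p = 0.0417), close to the threshold. The call did not survive leaving out replicate 1 or 3 of the flox/flox group, or replicate 2 or 3 labelled knockout (adjusted p = 0.11, 0.131, 0.102 and 0.12), nor quantile normalization (0.14) or the fit without a filter (0.0703). Own-total scaling turned its difference to 0.11 (adjusted p = 0.261), also below the shift of the median gene.

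A ratio within each library does not depend on the scaling. The Kcnj11 to Abcc8 ratio of FPKM was 0.240, 0.233 and 0.254 in flox/flox replicates 1 to 3 against 0.231, 0.201 and 0.211. All 3 labelled-knockout ratios were below all flox/flox ratios, with a log2 difference of -0.18. The exact two-sided permutation p = 0.10 is the smallest that 3 against 3 allows.

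Kcnj8 and Abcc9 encode Kir6.1 and SUR2, the KATP subunits typical of pericytes and vascular smooth muscle. Abcc9 was at 2.44, 2.48 and 2.43 FPKM in the flox/flox libraries against 1.58, 2.28 and 1.87, without overlap (log2 difference -0.30 ± 0.13 SE, adjusted p = 0.121). Kcnj8 was at 2.59, 1.55 and 1.40 FPKM against 1.37, 1.104 and 1.25, with flox/flox replicate 1 highest and the groups just apart (-0.40 ± 0.22, adjusted p = 0.197). Neither passed, with 95% intervals of -0.62 to 0.01 and -0.91 to 0.12, though Abcc9 was lower past the threshold with quantile normalization (-0.43, adjusted p = 0.0341). The 9 pericyte and smooth-muscle markers summed to 130.2 to 149 FPKM in the flox/flox libraries against 72.2 to 85.2, and their part in these values was not tested. Most of that sum was Rgs5, a pericyte gene, at 92.0 to 98.4 FPKM against 46.8 to 51.1. Of the 8 markers tested 4 fell and 4 did not pass.

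**Figure D2:**
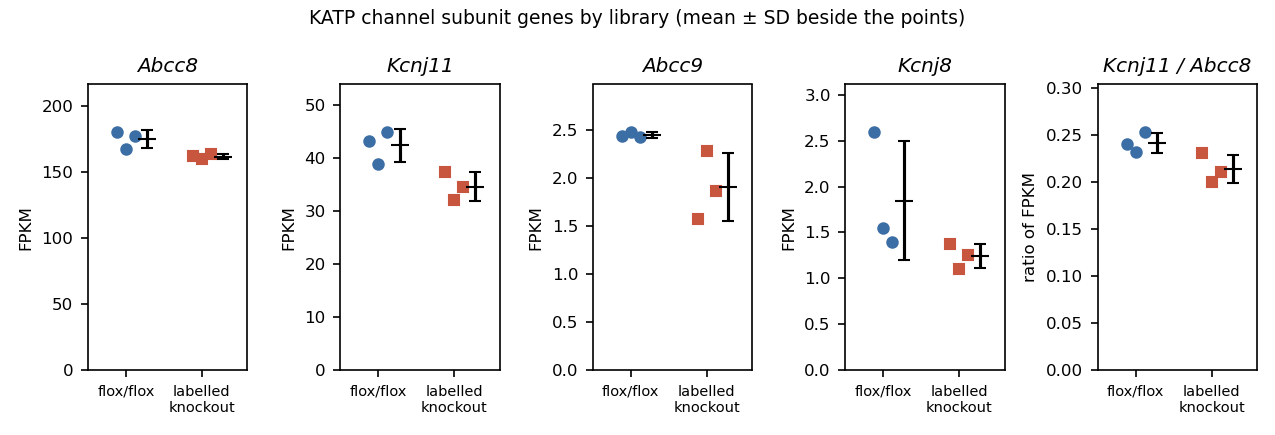
FPKM of the 4 KATP subunit genes in each library, and the Kcnj11 to Abcc8 ratio, with the mean and SD beside the points (n = 3 per group, all axes from 0). Kcnj11 means are 42.3 and 34.6 FPKM and Abcc8 means 174.7 and 161, and scaling to own totals turns the direction of both.

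Of the 15 Kir genes of the inward rectifier class, including Kcnj11 and Kcnj8, 3 were tested and 2 fell. Among all tested genes 17.2% were lower. Kcnj11 kept its call in 2 of the 6 leave-one-out fits. Of the Kir genes under the filter only Kcnj14 passed in a fit without it, and it rose (adjusted p = 0.0105). Kcnj12 encodes Kir2.2, a strong inward rectifier that holds resting voltage near the potassium equilibrium potential. Its reads numbered 89, 75 and 118 in the flox/flox libraries against 13, 7 and 10 in those labelled knockout, or 1.89 to 2.89 FPKM against 0.1302 to 0.227. The groups lay far apart, and the labelled-knockout mean was 7.70% of the flox/flox mean. Kcnj12 fell by 2.04 ± 0.23 on the log2 scale (SE, limma adjusted p = 0.00135), the largest difference of any tested member. It was tested only through its flox/flox level, and passed in the 5 leave-one-out fits that tested it (adjusted p = 0.00329 to 0.00984).

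The G-protein-gated Kir genes lay under the filter. Kcnj6 (GIRK2) was at 0.353, 0.715 and 0.568 FPKM in the flox/flox libraries against 0.867, 0.995 and 1.23, and Kcnj3 (GIRK1) at 0.749 to 0.836 and 0.555 to 0.667. Both sets of groups did not overlap, in opposite directions, and neither gene passed in a fit without the filter (adjusted p = 0.154 and 0.448). Kcnj5 (GIRK4) gave 25 reads over all flox/flox libraries against 5 (adjusted p = 0.121 in that fit).

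Among 14 tandem-pore genes 5 were tested, 1 rose and none fell, where 34.0% of all tested genes passed. Kcnk16 was at 176, 143 and 155 FPKM in the flox/flox libraries against 157, 133 and 143, overlapping widely (-0.13 ± 0.10 SE, adjusted p = 0.382). Own-total scaling turned its difference to 0.28 (adjusted p = 0.0374), again below the shift of the median gene. Kcnk1 encodes TWIK-1, a weakly inward-rectifying background channel. Its level was 8.25, 9.32 and 8.44 FPKM in the flox/flox libraries against 18.9, 13.8 and 16.8.

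Every labelled-knockout library was above every flox/flox library for Kcnk1, and its mean was 1.904-fold higher. It rose by 0.88 ± 0.12 on the log2 scale (SE, limma adjusted p = 0.00265), a call kept in all 15 alternatives. Kcnk12 (THIK-2) was at 5.40 to 10.45 FPKM and 8.72 to 13.95, and Kcnk3 (TASK-1), an acid-sensitive channel, at 1.95 to 3.44 and 2.66 to 2.895. Both overlapped and neither passed (adjusted p = 0.191 and 0.798).

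Voltage-gated channels of the Kcna to Kcnd classes open on depolarisation and return the cell toward rest. Kcnc4 encodes Kv3.4, a fast-inactivating channel. It was at 0.613, 1.00 and 0.680 FPKM against 1.64, 2.43 and 1.85, with the labelled-knockout libraries all higher and no overlap. Kcnc4 rose by 0.97 ± 0.20 (SE, adjusted p = 0.0132), and the adjusted p was 0.0526 without labelled-knockout replicate 3.

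Kcna2, which encodes Kv1.2, was at 1.37, 2.31 and 1.79 FPKM against 0.951, 0.889 and 0.867. Flox/flox replicate 2 was highest, and no library of one group lay within the other. It fell by 0.71 ± 0.19 (SE, adjusted p = 0.0306). Leaving out flox/flox replicate 2 or 3 ended the call (adjusted p = 0.0800 and 0.0880) as did leaving out labelled-knockout replicate 1, 2 or 3 (adjusted p = 0.0556, 0.0639 and 0.0925). Kcnd1 (Kv4.1) was at 3.299 to 3.75 and 2.27 to 3.04 FPKM, without overlap, and Kcna5 (Kv1.5) at 0.8001 to 1.13 and 1.13 to 1.64, and neither passed (adjusted p = 0.0713 and 0.33). Kcnd1 was lower past the threshold with quantile normalization (adjusted p = 0.0235) and without labelled-knockout replicate 2 (0.0487).

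Of 10 subunits that form no channel alone and modify voltage-gated channels, 1 was tested, and it fell. Among all tested genes 17.2% were lower. The 1 tested subunit reached the filter only through its flox/flox level. Kcnf1 (Kv5.1) was at 2.13, 1.40 and 1.62 FPKM in the flox/flox libraries against 0.371, 0.384 and 0.614. Its labelled-knockout mean was 26.6% of the flox/flox mean, without overlap. Kcnf1 fell by 1.21 ± 0.23 on the log2 scale (SE, limma adjusted p = 0.00878), and passed in the 4 leave-one-out fits that tested it. Kcns3 (Kv9.3), under the filter, gave 5, 0 and 0 reads in replicates 1 to 3 of the flox/flox group against 123, 69 and 96. It was the highest of the 60 untested members in the labelled-knockout group, at 1.12 to 1.86 FPKM, and rose in the fit without the filter (adjusted p = 0.0038).

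In the Kcnh class, relatives of the ether-à-go-go channel, 4 of 8 genes were tested, 1 rose and none fell. Among all tested genes 34.0% passed. Kcnh1 encodes EAG1 (Kv10.1), a slowly activating voltage-gated channel. It was at 2.46, 2.65 and 2.39 FPKM in the flox/flox libraries against 8.83, 6.74 and 8.31. Every labelled-knockout library was far above every flox/flox library, and the mean was 3.18-fold higher. The log2 difference of 1.49 ± 0.11 (SE, limma adjusted p = 0.000332) was the largest rise of any tested member and passed in all 15 alternatives (adjusted p = 9.45e-05 to 0.0174).

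Erg channels of the same class shape repolarisation and firing in islet cells. Kcnh6 (Erg2) was at 53.8, 41.2 and 49.8 FPKM in flox/flox replicates 1 to 3 against 50.1, 69.9 and 61.7. Labelled-knockout replicate 1 lay within the flox/flox range, and Kcnh6 did not pass (0.32 ± 0.15 SE, adjusted p = 0.141, 95% interval -0.03 to 0.67). Kcnh2 (Erg1) was at 22.3 to 26.4 and 23.0 to 25.7 FPKM, almost the same range (adjusted p = 0.688). Kcnh3, a channel of the ELK type, was at 1.09 to 1.55 and 1.05 to 1.59 FPKM and did not pass (adjusted p = 0.788). Kcnh5 (EAG2), under the filter, gave 90 reads over the flox/flox libraries against 37, and fell in the fit without the filter (adjusted p = 0.0454), opposite to Kcnh1.

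Kcnq1, known from heart and epithelia, was at 1.00 to 1.71 and 1.17 to 1.87 FPKM and did not pass (adjusted p = 0.847).

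**Figure D3:**
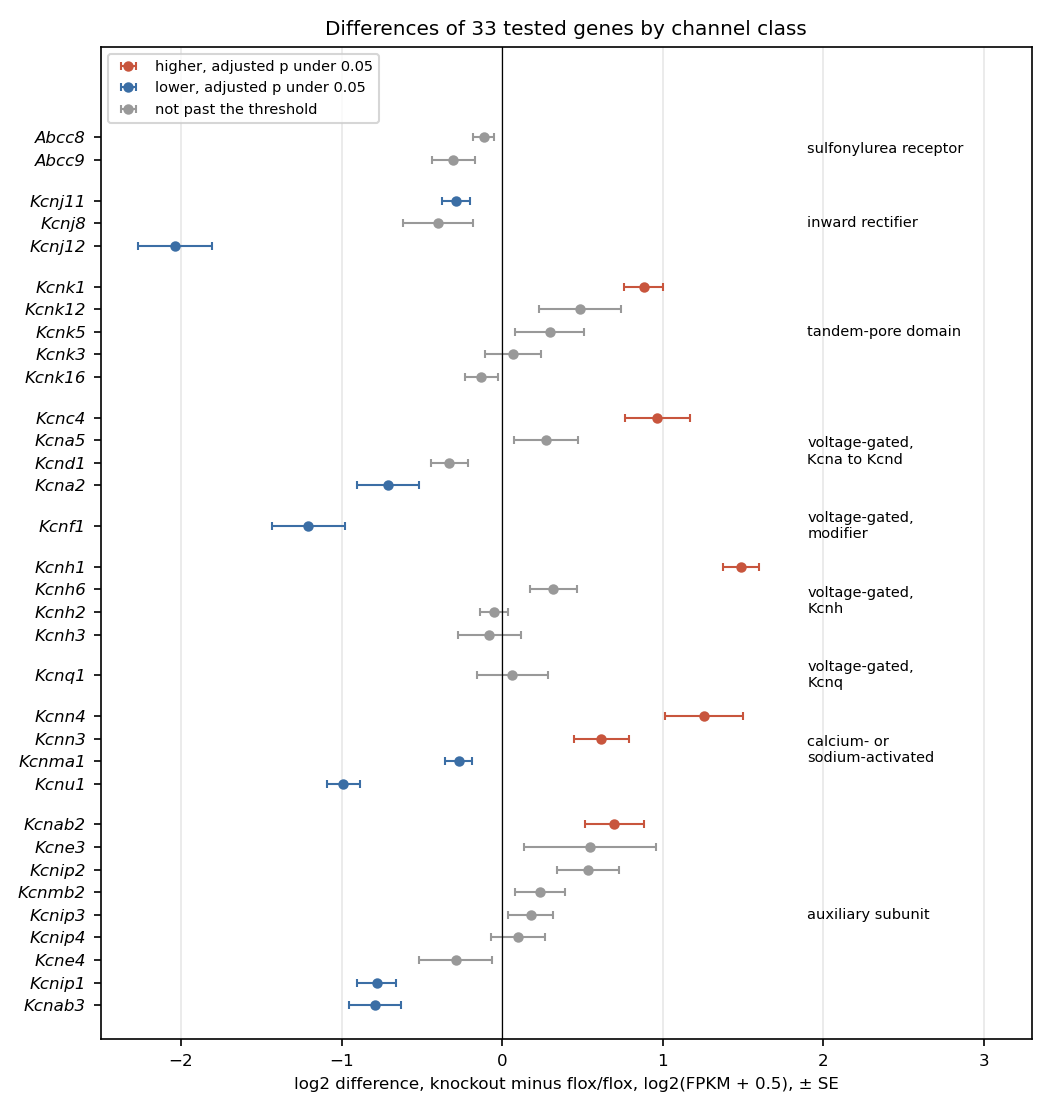
Log2 differences (knockout minus flox/flox, on log2(FPKM + 0.5)) with SE for 33 of the 36 tested genes, by channel class read from gene names. Colours show whether a gene passed the test. Kcnh1 has the largest rise (1.49) and Kcnj12 the largest fall (2.04 lower), and with own-total scaling the small differences of Kcnj11 and Kcnma1 turn to 0.11 and 0.08, neither past the threshold.

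The group of calcium- and sodium-activated channels was formed from gene names, and Kcnu1 is in it by its name. All 4 of its tested genes passed, 2 in each direction, where 34.0% of all tested genes did. Kcnma1 lost its call whichever library was left out, and Kcnn3 kept its call in 2 of those 6 fits. Kcnn4 was tested only through its labelled-knockout level. Kcnma1 encodes the BK channel, of large conductance, which repolarises islet cells after calcium entry. It was at 3.22, 3.115 and 3.503 FPKM against 2.66, 2.64 and 2.59, without overlap. Kcnma1 fell by 0.27 ± 0.08 (SE, adjusted p = 0.0467), and without each of the 6 libraries in turn the adjusted p was above the threshold (adjusted p = 0.0594 to 0.142). Own-total scaling turned its difference to 0.08 (adjusted p = 0.483).

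Kcnu1 encodes Slo3, a relative of BK best known from sperm. It was at 3.33, 3.57 and 3.21 FPKM against 1.515, 1.34 and 1.497, well apart. It fell by 0.99 ± 0.10 on the log2 scale (SE, limma adjusted p = 0.000984) and passed in all 6 leave-one-out fits. Kcnn3 encodes the small-conductance channel SK3. It was at 5.33, 3.15 and 4.88 FPKM against 6.84, 6.84 and 7.19, with flox/flox replicate 2 lowest. Kcnn3 rose by 0.62 ± 0.17 (SE, adjusted p = 0.0337), and lost the call without flox/flox replicate 3 (adjusted p = 0.0576) or labelled-knockout replicate 1, 2 or 3 (adjusted p = 0.0732, 0.0741 and 0.102).

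Kcnn4 encodes the intermediate-conductance channel KCa3.1, known from lymphocytes, red cells and epithelia. It was at 0.685, 1.26 and 0.448 FPKM in flox/flox replicates 1 to 3 against 2.38, 2.77 and 2.38, without overlap. Kcnn4 rose by 1.26 ± 0.24 on the log2 scale (SE, limma adjusted p = 0.0096), 3.15-fold on means. The 10 lymphocyte markers summed to 7.86, 4.42 and 6.58 FPKM in the flox/flox libraries against 111, 83.6 and 99.2. In each group Kcnn4 was highest in replicate 2, where that sum was lowest, and the part of these markers in the rise was not tested. Of those, Cd79b of B cells was at 0.0462 to 0.145 FPKM against 18.01 to 28.1, and Cd3e of T cells had no read in flox/flox replicates 1 and 3.

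Kcna3 encodes Kv1.3, the voltage-gated channel of T cells. Its reads were 5, 4 and 21 against 42, 31 and 33. Flox/flox replicate 3, at 0.744 FPKM, was close to the labelled-knockout libraries at 0.834 to 1.06, and the gene did not pass without the filter (adjusted p = 0.151).

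Auxiliary subunits numbered 16, of which 9 were tested, 1 rose and 2 fell, where 34.0% of all tested genes passed. Kcnip1 encodes KChIP1, a calcium-binding partner of Kv4 channels. It was at 10.8, 9.54 and 8.43 FPKM against 5.97, 4.68 and 5.48, without overlap, and fell by 0.78 ± 0.12 on the log2 scale (SE, limma adjusted p = 0.00423). Its relatives did not pass, Kcnip2 at 0.54 ± 0.19 (adjusted p = 0.0711, and 0.0297 without labelled-knockout replicate 2), Kcnip3 at 0.18 ± 0.14 (adjusted p = 0.372) and Kcnip4 at 0.10 ± 0.17 (adjusted p = 0.686). Kcne4, a small single-span subunit, did not pass at 0.938 to 1.965 and 1.107 to 1.137 FPKM (adjusted p = 0.371).

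The Kvβ genes Kcnab2 and Kcnab3, partners of Kv1 channels, moved in opposite directions. Kcnab3 was at 7.50, 5.15 and 6.98 FPKM against 3.88, 2.94 and 3.82, without overlap, and fell by 0.79 ± 0.16 (SE, adjusted p = 0.0114), with an adjusted p of 0.0507 under own-total scaling. Its antisense gene Kcnab3os shares 147 exon bases with it, or 5.13% of the gene's length, and was at 1.14 and 0.0584 FPKM on means. Kcnab2 was at 0.853, 0.645 and 0.918 FPKM against 1.53, 1.92 and 1.42 and rose by 0.70 ± 0.19 (SE, adjusted p = 0.0288). Leaving out any 1 of the 6 libraries ended that call (adjusted p = 0.0543 to 0.0827).

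Of the BK partners, Kcnmb2, whose β subunit inactivates BK channels, was at 23.8, 19.6 and 23.9 FPKM against 32.1, 21.4 and 26.6. The groups overlapped and it did not pass (0.23 ± 0.16 SE, adjusted p = 0.291). Within each library the ratio of Kcnma1 to Kcnmb2 was 0.135, 0.159 and 0.146 in flox/flox replicates 1 to 3 against 0.0828, 0.123 and 0.0974. All labelled-knockout ratios were below all flox/flox ratios (log2 difference -0.56, exact two-sided permutation p = 0.10). Of the 4 ratios computed, the other two did not separate the groups, Kcnj8 to Abcc9 with a log2 difference of -0.15 and Kcnh6 to Kcnh2 with 0.38 (exact permutation p = 0.7 and 0.2). The Kcnma1 to Kcnmb2 ratio was chosen after its values were seen.

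Kcne3 encodes a partner of Kcnq1 channels in intestinal crypt cells, and Kcnk5 encodes TASK-2, a channel of transporting epithelia. Kcne3 was at 0.966, 2.22 and 1.40 FPKM in flox/flox replicates 1 to 3 against 1.21, 4.51 and 2.25, and Kcnk5 at 1.24, 1.79 and 1.899 against 1.54, 2.73 and 2.20. Both overlapped and neither passed (adjusted p = 0.348 and 0.326). Labelled-knockout replicate 2 was highest and replicate 1 lowest of the labelled-knockout libraries for both. The enterocyte markers, 9 of 10 listed being in the table, summed to 54.8, 43.9 and 48.4 FPKM in the flox/flox libraries and to 132, 702.6 and 372 in labelled-knockout replicates 1, 2 and 3. The order of the sums was that of both genes in the labelled-knockout libraries and the reverse of that of Kcne3 in the flox/flox libraries. Most of the flox/flox sum came from 2 of the markers, Vil1 (26.8 to 30 FPKM) and Anpep (16.1 to 20.6 FPKM). The part of enterocytes in either order was not tested. Alpi, an enterocyte phosphatase, had no read in the flox/flox libraries. With labelled-knockout replicates 2 and 3 left out, the differences of Kcne3 and Kcnk5 turned from 0.55 and 0.30 to -0.20 and -0.06.

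**Figure D4:**
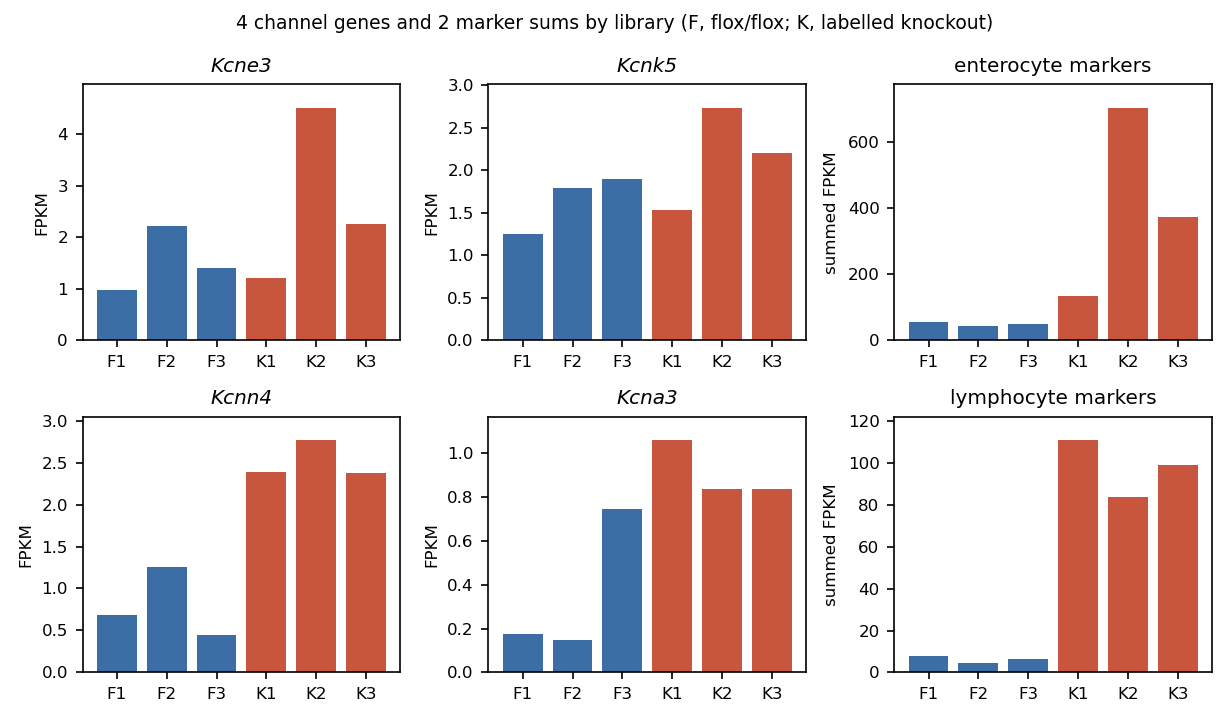
FPKM of Kcne3, Kcnk5, Kcnn4 and Kcna3 in each library beside the summed FPKM of enterocyte and lymphocyte markers (F1 to F3, flox/flox replicates, K1 to K3, labelled-knockout replicates, all axes from 0). Kcne3 and Kcnk5 are highest in K2, where enterocyte markers sum to 702.6 FPKM. Kcnn4 is above 2 FPKM in K1 to K3 only, the libraries with 83.6 to 111 FPKM of lymphocyte markers. Within each group Kcnn4 is highest in the library where the lymphocyte sum is lowest (F2 and K2).

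Of the 60 members under the filter, 4 had no read in any library (Kcns2, Kcnv1, Kcnv2 and Kcne1), 26 had 1 to 60 reads over the 6 libraries and 30 had more. A count of 0 in a library allows up to 3 reads, for counting error only. In a fit without the filter, 4.07% of all genes under it with at least 1 read passed. That share covers every gene type and was not matched to the members by reads. The 4 members with no read were not in that fit, and 5 others of the 60 passed, 4 higher and 1 lower. Beside Kcns3 and Kcnh5 these were Kcnj14 (Kir2.4), with 2, 5 and 2 reads against 46, 52 and 32, Kcnq5 (Kv7.5), with 2, 0 and 8 against 33, 33 and 30, and Kcnc1 (Kv3.1), with 1, 3 and 4 against 21, 24 and 34 (adjusted p = 0.0105, 0.0248 and 0.0417). All 5 had low counts. Kcng1, a modifier subunit, had no flox/flox read against 17, 5 and 12, and did not pass (adjusted p = 0.0681).

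**Figure D5:**
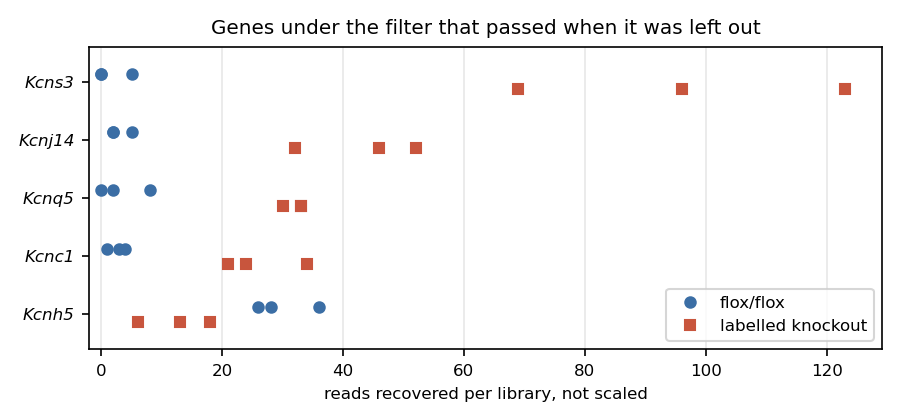
Reads recovered per library, not scaled for depth, for the 5 genes under the filter that passed in a fit without it. Kcns3 has 69 to 123 reads in labelled-knockout libraries and 0 to 5 in flox/flox libraries, and Kcnh5 is the 1 gene with fewer reads in the labelled-knockout group.

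Strand was not stated, and 11 tested members share exon bases with a gene on the opposite strand. For most of them the shared stretch was short and the partner low. Of those that passed, Kcnma1 shares 1016 bases (5.98% of its length) with 4930519K11Rik, at 0.747 and 0.353 FPKM on means. Kcnk1 shares 179 (8.01%) with Gm45875, at 0.0591 and 0.104. Reads in these stretches cannot be assigned to a strand.

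Among genes that are no potassium channels but act in the same pathway, from glucose entry to calcium influx and ion pumping, 32 of 37 listed were tested, 8 rose and 12 fell, with a median log2 difference of -0.23. Among all tested genes 16.9% were higher and 17.2% lower, with a median of 0.00. The list holds genes chosen with results of these data known. Trpm5, a cation channel, and Slc2a2 had the largest differences, at -3.64 ± 0.12 and -2.26 ± 0.06 (SE, limma adjusted p = 2.14e-05 and 1.43e-05), and both fell. Scn3a, a sodium channel, rose by 1.34 ± 0.14 (adjusted p = 0.00105), from 2.17 to 3.24 FPKM in the flox/flox libraries to 6.97 to 8.2. Pcx, pyruvate carboxylase, fell by 1.23 ± 0.08 (adjusted p = 0.000196).

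Partner and regulator genes of potassium channels include trafficking proteins, ligases and G-protein subunits. Of 22 listed 17 were tested, 2 rose and 1 fell, with a median of -0.08, where 34.0% of all tested genes passed. Gng2, a G-protein γ subunit, rose by 0.63 ± 0.11 (SE, adjusted p = 0.00695) and Nedd4l, a ubiquitin ligase of channels, by 0.30 ± 0.07 (adjusted p = 0.0198). The Nedd4l call was lost with quantile normalization (adjusted p = 0.0554) and on leaving out flox/flox replicate 3 (0.0552), labelled-knockout replicate 2 (0.0543) or labelled-knockout replicate 3 (0.0755). Vapb fell by 0.32 ± 0.07 (adjusted p = 0.0162), and own-total scaling turned it to 0.07 (adjusted p = 0.404), while its adjusted p without labelled-knockout replicate 3 was 0.068. Dpp6 and Dpp10, partners of Kv4 channels, did not pass at 1.149 to 1.86 against 1.13 to 2.92 FPKM and 0.974 to 1.49 against 0.784 to 0.865 (adjusted p = 0.452 and 0.166).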

How the data were processed

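The authors deposited 1 table of FPKM values for 54556 genes in 6 libraries, with coordinates and a length for each gene per the file headers. The tools named are DESeq2 1.16.1, featureCounts 1.5.0-p3 and HISAT2 2.0.5, and the build GRCm38.p6, per the submitters' processing notes. What each did, its filters and its strand setting were not given in the sources used here. FPKM times gene length came to whole multiples of 1 step per library (100% of values within 0.1 of a whole number), taken as reads. Against a library's read total, the divisor in the authors' FPKM came to 0.855 to 0.885 for flox/flox and 1.13 to 1.17 for labelled knockout. Divided by the median-of-ratios factor of a library's reads, the divisor was the same in all 6 libraries, at 1.726954e+07. The deposited values therefore already carried a median-of-ratios scaling and were used as they stand.

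Groups came from the sample titles. The test, on genes with a mean of at least 1 FPKM, was limma (version 3.58.1, R 4.3.3, lmFit, eBayes with a variance trend, two-sided) on log2(FPKM + 0.5). It was tried on simulated data. Ratios used an exact permutation test over samples. No per-sample column was left unused (0). Sequences came from RefSeq (GRCm38.p6) and GENCODE M21, and of the members all 96 matched GENCODE by gene ID.

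The members and lists were chosen with earlier results of these data known. Named genes are the KATP subunits and other channels widely studied in islets, each tested member that passed, and the 6 with the highest flox/flox level, with others named to account for the members. Counts cover all members, and the results of some single members are not reported here. For each pathway list they are up to 4 genes that passed with the largest absolute difference. Alternatives were another pseudocount (0.1 and 1), filter (5 FPKM, none), scaling (own total, quantile), replicate block and left-out libraries, and limma-voom on the recovered reads, added after the data were seen.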

Additional observations from a re-analysis of the deposited data

How the results depend on the processing

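Other pseudocounts and limma-voom kept all 16 calls of members, quantile normalization 14 and the fit without a filter 11, losing Kcnj11, Kcnn3, Kcnma1, Kcna2 and Kcnab2. Of the 16, 7 passed whichever of the 6 libraries was left out, 2 passed in those that tested them and 7 lost the call in at least 1, and none of the 16 changed sign there. Leaving out 1 library gave 2713 to 4213 calls over all genes (4935 with all libraries), and 3 to 6 members higher and 4 to 7 lower. A filter at 5 FPKM gave 3090 calls in all, 4 members higher and 3 lower, because fewer genes were tested. Own-total scaling gave 8352 calls, 16 and 5 members, and leaving out labelled-knockout replicates 2 and 3 gave 1132, 2 and 3, with fewer samples.

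Own-total scaling turned Abcc8 to 0.29, Kcnk16 to 0.28, Kcnj11 to 0.11, Kcnh2 to 0.35, Kcnd1 to 0.021, Kcnma1 to 0.076, Abcc9 to 0.026, Kcne4 to 0.0021, Kcnh3 to 0.21 and Vapb to 0.074. Quantile normalization turned Abcc8 to 0.035, Kcnk16 to 0.040, Kcnh2 to 0.046, Kcnk3 to -0.041, Kcnip4 to -0.064 and Kcnq1 to -0.10. Without labelled-knockout replicates 2 and 3, Kcnh2 turned to 0.049, Kcne3 to -0.20, Kcnk5 to -0.061 and Kcnq1 to -0.13. Leaving out 1 library, Kcnk3 ranged from -0.12 to 0.23, Kcnip4 from -0.029 to 0.20, Kcnq1 from -0.094 to 0.20 and Kcnh3 from -0.22 to 0.011. Kcnh6, Kcnmb2, Kcnk12, Kcnip2, Kcnip3 and Kcna5 passed as higher with own-total scaling. The cause was not tested.

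Same-numbered libraries of the groups share a number and no stated source. Their deviations from the group means correlated at 0.042 to 0.081 across genes, and every library correlated best with its own number, a hint from the data only. With the replicate block 4659 genes passed, 8 members higher and 7 lower, the calls of Kcnma1, Kcna2 and Kcnab2 were lost (adjusted p = 0.0824, 0.0567 and 0.0691), and Kcnk12 and Kcnip2 passed as higher (adjusted p = 0.0157 and 0.026). The block gave a Kcnj11 to Abcc8 log2 difference of -0.18 (exact p = 0.25, the smallest that 3 pairs allow). edgeR and DESeq2 fits were planned and not run, since the deposited unit is FPKM. Counting error limits the members with few reads.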
